A study of Mus musculus with 6 samples.

Results

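The activin, inhibin and follistatin genes described here are 9 genes of 21956 in the table, found by their symbols: the inhibin beta subunit genes Inhba, Inhbb, Inhbc and Inhbe, the secreted antagonists Fst and Fstl3, and the receptors Acvr1b, Acvr2a and Acvr2b. They were measured by bulk sequencing of polyA RNA from whole mouse liver. The Stingfl/fl Cdh5-Cre+ group (knockout) held 3 mice with floxed Sting1 alleles and a Cre driven by the promoter of Cdh5, a gene of endothelial cells. The Stingfl/fl Cdh5-Cre- group (control) held 3 littermates with the same floxed alleles and no Cre, so that Cre itself and the loss of Sting1 cannot be told apart. All 6 animals were kept on chow to 8 weeks of age and then received CDAHFD, a high-fat diet that lacks choline and supplies L-amino acids, for 10 weeks to induce steatohepatitis, and no group without the diet was analysed here. The question is whether this signalling family differed between livers with and without the Cdh5-Cre deletion of Sting1.

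Activins are dimers of inhibin beta subunits and belong to the transforming growth factor beta superfamily. They bind a type II receptor, which recruits and activates the type I receptor ACVR1B, and the signal passes to SMAD2 and SMAD3. Follistatin and follistatin-like 3 bind activins outside the cell and block access to the receptors. In liver, activin A is known to restrain hepatocyte growth and activin B to raise hepcidin, while the beta C and beta E subunits are made mainly by hepatocytes.

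The libraries held estimated totals of 18528919 to 20414468 counts in the knockout and 16704663 to 21025466 in the control group. Sting1, the targeted gene, had 106, 114 and 80 counts in the knockout libraries, against 240, 365 and 226 in the control libraries. Its log2 fold change was -1.29 (standard error 0.23; adjusted p = 0.357 in edgeR and 0.0015 in DESeq2). Which part of the gene was deleted is not stated. These libraries do not show which cell types lost or kept it. The hepatocyte gene Alb took 9.60 to 10.9% of the knockout and 6.91 to 9.61% of the control counts, as in whole liver, the labelled tissue, although the labels also name sinusoidal endothelial cells as the cell type. Control replicate 2 stood apart, with a scaling factor of 1.26 against 0.922 to 1.01 in the other 5 libraries. In whole tissue, fewer cells of a type and less RNA per cell cannot be told apart.

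The sequence before the start of 4 members is shown because Inhbb and Acvr2a were lower in every knockout library, whereas Inhba and Inhbc overlapped between the groups. Fstl3 was also lower in every knockout library, and its window is not shown. Each run holds the 250 bases before the RefSeq start on GRCm38.p6, 5′ to 3′ on the gene's own strand. Capitals mark a match to TATAAA or to CAGAC, a short SMAD-binding motif, on either strand. The windows are chr1:119422249-119422498 (minus strand) for Inhbb, chr2:48813859-48814108 (plus strand) for Acvr2a, chr13:16011601-16011850 (plus strand) for Inhba and chr10:127370549-127370798 (minus strand) for Inhbc, and no GENCODE M21 exon lies in them.
Inhbb: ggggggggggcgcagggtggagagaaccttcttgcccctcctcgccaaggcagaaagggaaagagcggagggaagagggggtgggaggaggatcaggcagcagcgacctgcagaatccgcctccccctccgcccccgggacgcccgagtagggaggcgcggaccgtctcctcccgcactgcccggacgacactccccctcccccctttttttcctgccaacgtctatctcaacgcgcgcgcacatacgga
Acvr2a: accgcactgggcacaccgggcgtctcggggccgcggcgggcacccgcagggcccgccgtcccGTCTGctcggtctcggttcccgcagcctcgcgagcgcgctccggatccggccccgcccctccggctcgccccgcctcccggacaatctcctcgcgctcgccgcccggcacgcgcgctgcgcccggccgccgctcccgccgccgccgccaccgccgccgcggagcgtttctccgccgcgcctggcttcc
Inhba: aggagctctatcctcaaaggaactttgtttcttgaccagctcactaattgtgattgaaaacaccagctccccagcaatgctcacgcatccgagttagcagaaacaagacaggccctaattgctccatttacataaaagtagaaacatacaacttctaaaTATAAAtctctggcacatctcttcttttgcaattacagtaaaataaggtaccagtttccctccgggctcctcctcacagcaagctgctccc
Inhbc: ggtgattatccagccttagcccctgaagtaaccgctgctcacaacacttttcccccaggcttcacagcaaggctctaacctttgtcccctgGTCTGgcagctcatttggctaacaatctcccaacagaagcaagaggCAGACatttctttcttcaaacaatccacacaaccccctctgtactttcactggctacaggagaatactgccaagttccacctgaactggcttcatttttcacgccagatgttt

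The windows before the starts differed in base composition. Acvr2a had 82.0% G and C and 49 CpG dinucleotides in its 250 bases, more CpG than 99.85% of the 32851 windows of this length compared, and Inhbb had 68.0% and 21. Inhba and Inhbc had 43.2% and 48.8%, with 3 and 2 CpG dinucleotides, where the median window had 52.4% and 6. Composition did not separate the members by their difference between the groups. Acvr1b (78.8%, 42 CpG) and Acvr2b (72.8%, 24) were also rich in G and C, and both overlapped between the groups. Fstl3, lower in every knockout library, had 71.2% and 22, and Inhbe, which overlapped, had 58.8% and 6. A link between composition and the differences was not tested. RefSeq windows were found for 8 of the 9 members; that of Fst is not shown. The motifs searched on both strands were TGACGTCA (cAMP response element), TGATGNAAT (C/EBP-ATF response element core), GTCTAGAC (SMAD box), CAGAC (SMAD motif), CACGTG (E-box), TATAAA (core promoter element), CCAAT (bound by NF-Y) and GGAATG (TEAD site). No 2 matches overlapped in the 8 windows, and CAGAC is not part of GTCTAGAC. CAGAC was found in 5 of the 8 windows and in 42.2% of all windows. TATAAA was found in 2 of the 8, in Inhba 91 bases and in Fstl3 29 bases before the start, and in 12.4% of all windows. The match in Fstl3 reads TTTATA on the gene's own strand, so that TATAAA lies on the other strand there. CACGTG was found in that of Acvr1b (6.02% of all windows) and CCAAT in that of Inhbe (33.9%). The windows of Inhbe, Fstl3, Acvr1b and Acvr2b touch a GENCODE M21 exon of the same gene. That of Inhbe (chr10:127351849-127352098) lies inside the GENCODE span of the gene, so its RefSeq start is not the outermost one. The letters TGACGTCA (1.55% of all windows), TGATGNAAT (0.82%), GTCTAGAC (0.17%) and GGAATG (12.6%) were in none of the 8.

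The family was led by the subunits that hepatocytes make. Levels between genes are compared in TPM, the authors' transcript abundance scaled for gene length and library total. Over the 6 libraries Inhbc averaged 37.8 TPM and Inhbe 30.9 TPM, above 87.97% and 85.7% of all genes in the table. Acvr1b (8.28 TPM), Fst (7.13), Acvr2a (6.25), Inhbb (4.40), Inhba (2.79), Fstl3 (2.22) and Acvr2b (0.944) followed. Inhbe exceeded Acvr1b in 6 of 6 libraries, and the ranges of these neighbours did not overlap in either group. Inhbc exceeded Inhbe in 2 knockout and 3 control libraries, and their ranges overlapped in both groups, as did those of Fst and Acvr2a, of Inhbb and Inhba, and of Inhba and Fstl3. The other 3 pairs of neighbours overlapped in 1 group only, Acvr1b with Fst and Acvr2a with Inhbb in the control livers and Fstl3 with Acvr2b in the knockout livers.

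**Figure D1:**
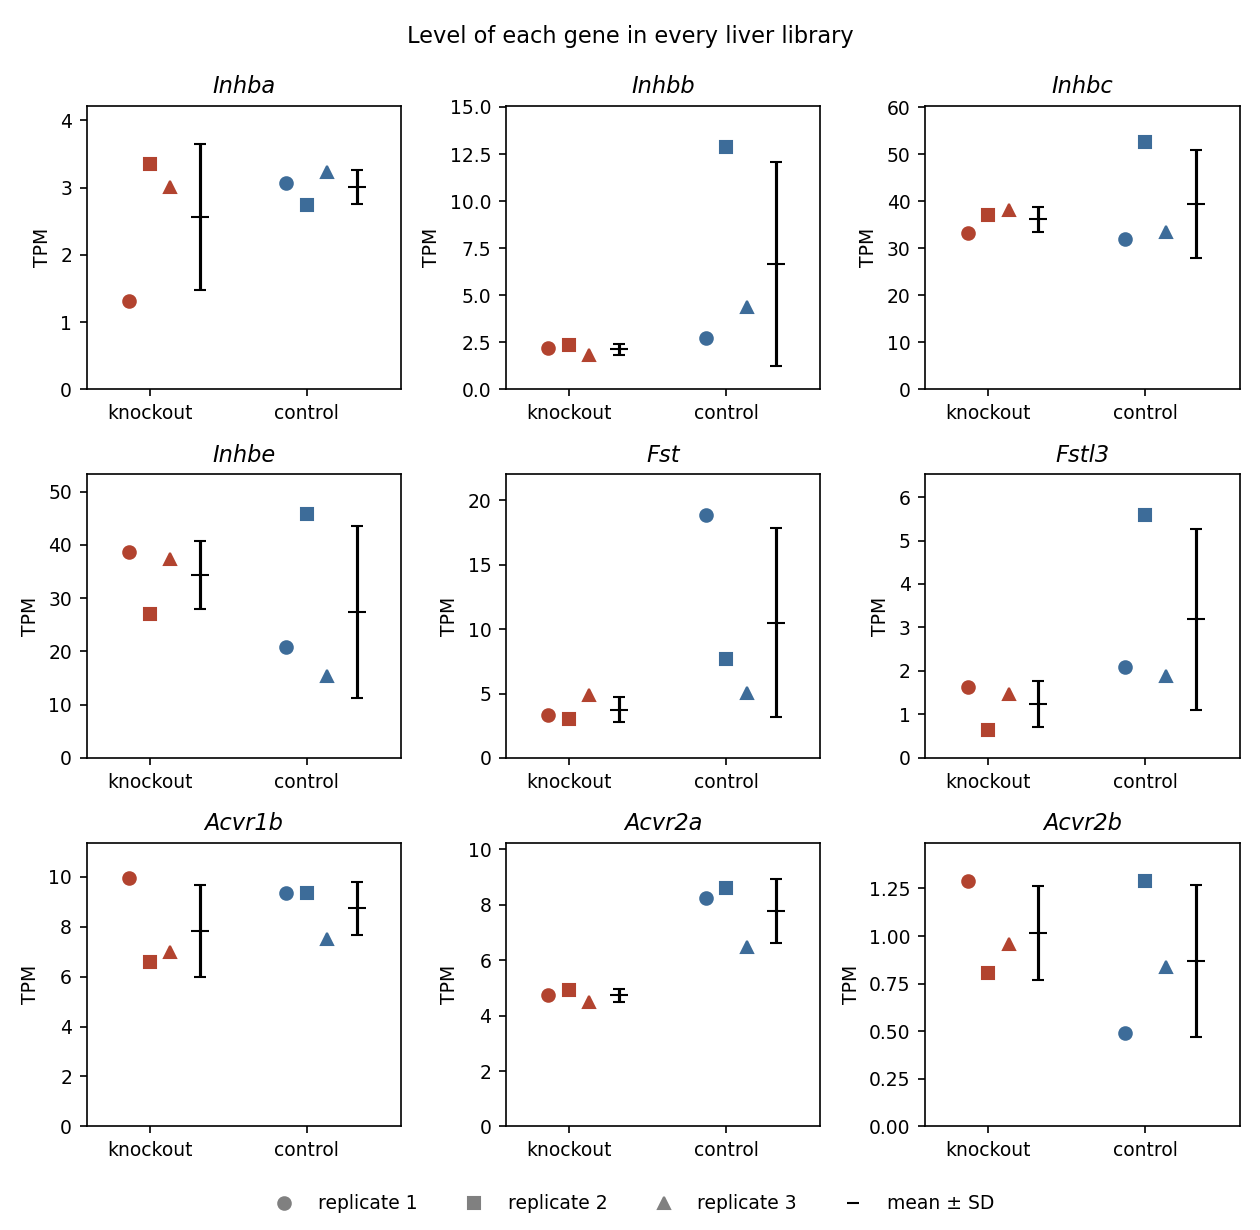
Level of each of the 9 genes in TPM (vertical axes, starting at 0) in the 3 knockout and 3 control liver libraries, with symbols for replicates and a black bar for mean ± SD. The 3 knockout libraries lie below the 3 control libraries for Inhbb, Fst, Fstl3 and Acvr2a. The share of all genes separated in this way in TPM was not counted, and log2(TPM + 1) puts the median log2 fold change of all genes at -0.198. On the TMM-adjusted scale used for the tests, Fst overlaps between the groups. Control replicate 2 is the highest point for Inhbb, Inhbc, Inhbe, Fstl3 and Acvr2a.

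No member passed the test over all genes. Counts were compared with edgeR's quasi-likelihood test with Benjamini-Hochberg adjustment over 13197 genes, in which 0 of 9 members and 0 of all genes (0.0%) had an adjusted p under 0.05. All 9 members passed the filter on low counts. At an unadjusted p under 0.05, 4 of the 9 were found, Acvr2a, Inhbb and Fst lower and Inhbe higher, against 10.8% of all genes tested (1419 genes; 7.0% of all genes lower). This count was 1 without knockout replicate 3 (Acvr2a, against 6.02% of all genes), 1 without control replicate 1 (Inhbb, against 7.44%) and 2 with the replicate number as a block (Acvr2a and Inhbb, against 13.6%). DESeq2 called 118 genes and limma-voom 0, and no member was among them. In CPM, counts scaled to the TMM-adjusted library total, the groups did not overlap for 3 of the 9, all lower in the knockout, against 16.4% of all genes tested, and 9.14% lower. Of the 9, 4 had a log2 fold change below 0 and 5 above, with a median of 0.09, the value of Acvr1b, beside 0.01 over all genes.

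**Figure D2:**
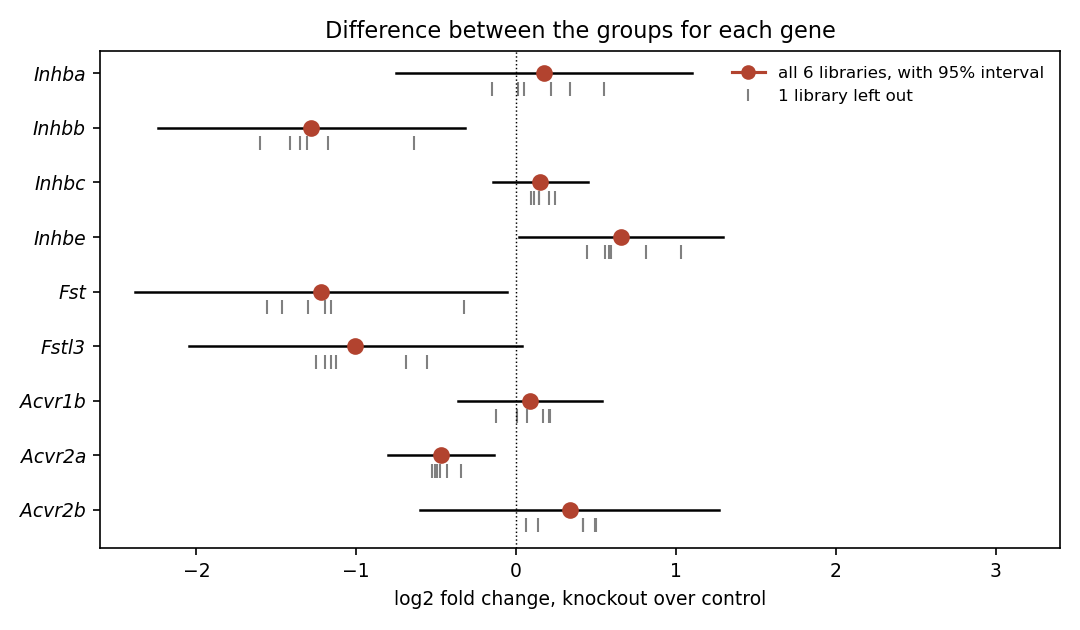
Log2 fold change of each gene, knockout over control (horizontal axis), from the fit to all 6 libraries (red points) with its 95% interval (black lines), and from the fits that leave out 1 library (grey ticks). The intervals of Inhbb, Fst and Acvr2a lie below 0 and that of Inhbe above 0 before adjustment over all genes; the tick of Fst nearest 0, at -0.33, is the fit without control replicate 1.

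Among the ligands, Inhbb, which encodes the beta B subunit of activin B, was the one with lower values in every knockout library. It lies on chromosome 1, 119415465 to 119422248, minus strand (ENSMUSG00000037035; positions of all members are on GRCm38). It had 2.21, 2.38 and 1.82 TPM in the knockout livers, against 2.75, 12.9 and 4.38 TPM in the control livers. The knockout libraries were close together, with the highest 1.31 times the lowest, while the control libraries spread 4.67-fold and control replicate 2 was far above the others. The mean was 5.41 ± 0.70 CPM in knockout and 13.1 ± 8.36 CPM in control livers (SD, n = 3 each). Its log2 fold change was -1.28 (standard error 0.42; adjusted p = 0.381 in edgeR). Without control replicate 2 it was -0.64. In DESeq2 the adjusted p of Inhbb was 0.102, the smallest of any member under any of the 15 alternatives. The gene whose profile over the 6 libraries lay nearest that of Inhbb was Bmp8b, another ligand of the superfamily, followed by the scaffold protein gene Akap12. Their root mean square differences from Inhbb in centred log2 CPM were 0.0924 and 0.201, while the SD of Inhbb itself was 0.834.

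Inhba, which encodes the beta A subunit of activin A, overlapped between the groups. It lies on chromosome 13, 16011851 to 16031621, plus strand (ENSMUSG00000041324), and overlaps the minus-strand genes B230303A05Rik and Gm48444. It had 1.32, 3.35 and 3.01 TPM in the knockout livers, against 3.07, 2.74 and 3.23 TPM in the control livers. Knockout replicate 1 was the lowest of all 6 libraries, and knockout replicate 2 was the highest. The log2 fold change was 0.18 with a 95% interval of -0.75 to 1.10 (edgeR, adjusted p = 0.888). Its direction was below 0 with library totals in place of TMM scaling, at -0.011, in log2(TPM + 1), at -0.223, and without knockout replicate 2, at -0.152. Of the genes nearest in profile, Gm14403 and Plac9, none lay closer than 0.209 in root mean square difference.

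Inhbc and Inhbe, which encode the beta C and beta E subunits (ENSMUSG00000025405 and ENSMUSG00000047492), are neighbours on chromosome 10 on the minus strand, from 127356322 to 127370431 and from 127348857 to 127354411, with 1910 bases and 0 other genes between them. Inhbc had 33.2, 37.0 and 38.2 TPM in the knockout livers, against 32.1, 52.6 and 33.5 TPM in the control livers. Inhbe had 38.7, 26.9 and 37.3 TPM in the knockout livers, against 20.9, 45.8 and 15.5 TPM in the control livers. Both overlapped between the groups, with control replicate 2 as the highest library in TPM. The antisense gene Gm47200 overlaps both loci, and although the libraries were strand-specific, the strand setting of the counting is not stated, so that sense and antisense reads may be mixed.

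Inhbe averaged 108.7 ± 21.2 CPM in knockout and 69.0 ± 27.7 CPM in control livers (SD, n = 3 each). It was the one member above 0 with an unadjusted p under 0.05, at a log2 fold change of 0.65 (standard error 0.28; adjusted p = 0.457 in edgeR). The value was 1.03 without control replicate 2, and 0.38 with library totals in place of TMM. Inhbc had a log2 fold change of 0.15 and a 95% interval of -0.14 to 0.45 (adjusted p = 0.687 in edgeR), and it stood at -0.078 with library totals and -0.087 in log2(TPM + 1), settings that put the median over all genes at -0.209 and -0.198. Nearest to Inhbe in profile was Gpr4, a proton-sensing receptor gene, at a root mean square difference of 0.128. Nearest to Inhbc were Anapc1 and Ankfy1, at 0.0329 and 0.0348, among genes that varied as little as Inhbc did (SD of 0.144 in log2 CPM).

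Within the beta subunit transcripts, the share of Inhbb was lower in every knockout library, while the shares of the other 3 genes and the sum of all 4 overlapped between the groups. The 4 genes together gave 75.5, 69.7 and 80.4 TPM in the knockout livers, against 58.8, 114.0 and 56.6 TPM in the control livers. Inhbc and Inhbe made up 95.3%, 91.8% and 94.0% of that sum in the knockout livers, against 90.1%, 86.3% and 86.6% in the control livers, without overlap. Inhbb made up 2.93%, 3.42% and 2.26% in the knockout livers, against 4.69%, 11.3% and 7.74% in the control livers. Inhbe alone made up 51.3%, 38.7% and 46.4% in the knockout livers, against 35.5%, 40.2% and 27.3% in the control livers, with overlap. The ratio of Inhbe to Inhbc was 1.17, 0.728 and 0.975 in the knockout livers, against 0.651, 0.871 and 0.462 in the control livers, and these ranges overlapped. Such ratios are given without a test.

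**Figure D3:**
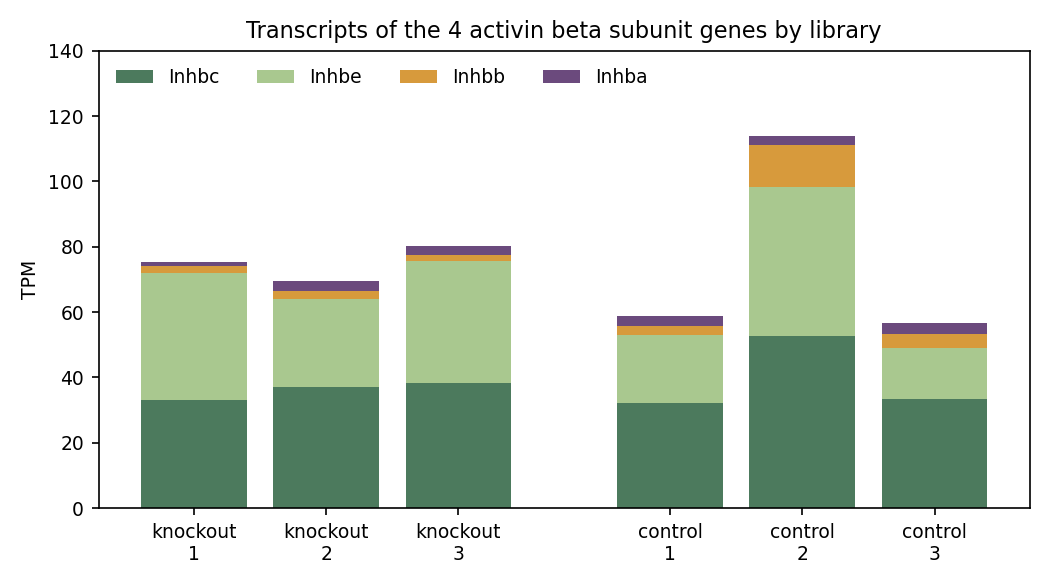
TPM of Inhbc, Inhbe, Inhbb and Inhba stacked for each of the 3 knockout and 3 control liver libraries (vertical axis from 0). The hepatocyte subunit genes Inhbc and Inhbe form most of every bar, and the Inhbb segment is widest in control replicate 2, at 11.3% of the sum.

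Both antagonists were lower in every knockout library in TPM. Fst, which encodes follistatin, lies on chromosome 13, 114452290 to 114458951, minus strand (ENSMUSG00000021765), and overlaps the antisense gene Gm47040. It had 3.37, 3.03 and 4.85 TPM in the knockout livers, against 18.8, 7.65 and 5.01 TPM in the control livers. Control replicate 1 was far above the rest, and control replicate 3 was close to knockout replicate 3. After TMM scaling the groups overlapped, at 5.28 CPM in knockout replicate 3 and 5.07 CPM in control replicate 3. The fit put Fst at a log2 fold change of -1.22 (standard error 0.50; adjusted p = 0.447 in edgeR), and without control replicate 1 it was -0.33. Chrnb2, a nicotinic receptor subunit gene, and Akr1b7, an aldo-keto reductase gene, were nearest to Fst in profile, at 0.270 and 0.290, with an SD of Fst of 0.853.

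Fstl3, whose product binds activins and myostatin, was a gene of low counts. It lies on chromosome 10, 79777272 to 79782630, plus strand (ENSMUSG00000020325), and overlaps Prss57 on the other strand. It had 36, 13 and 31 counts in the knockout libraries, against 44, 94 and 43 in the control libraries, and the count of 13 has a Poisson interval of 6.92 to 22.2 (95%, counting error only). In TPM these were 1.63, 0.648 and 1.46 in the knockout livers, against 2.09, 5.58 and 1.89 in the control livers. The groups did not overlap, and control replicate 2 was the highest. The margin was within counting error, since the Poisson intervals of knockout replicate 1 (25.2 to 49.8) and control replicate 3 (31.1 to 57.9) overlapped. The fitted log2 fold change of Fstl3 was -1.01 (standard error 0.46; adjusted p = 0.477 in edgeR), and without control replicate 2 it was -0.56. Nearest in profile were Phgdh, an enzyme of serine synthesis, at 0.115 and Zfp354c at 0.156.

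Antagonist and ligand transcripts were also set against each other within a library. The summed TPM of Fst and Fstl3 was 5.004, 3.68 and 6.31 in the knockout livers, against 20.9, 13.2 and 6.90 in the control livers, without overlap. That of Inhba and Inhbb was 3.53, 5.74 and 4.83 in the knockout livers, against 5.82, 15.6 and 7.61 in the control livers, also without overlap. On the TMM-adjusted totals the sum of Inhba and Inhbb overlapped, at 9.36, 18.6 and 15.1 CPM in the knockout livers, against 15.9, 28.4 and 18.9 CPM in the control livers. That of Fst and Fstl3 did not, although knockout replicate 3 (6.98 CPM) was close to control replicate 3 (7.17 CPM). Their ratio, antagonists over ligands, was 1.42, 0.642 and 1.31 in the knockout livers, against 3.59, 0.848 and 0.907 in the control livers. This ratio overlapped, since control replicates 2 and 3 lay between the knockout values.

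Among the receptors, the type II receptor gene Acvr2a was lower in every knockout library. It had the smallest p of the 9 members in edgeR with all 6 libraries, but not in every setting. The smallest was that of Inhbb in DESeq2 and without control replicate 1, and that of Inhbe without control replicate 2. It was that of Fst without control replicate 3 and in log2(TPM + 0.1). Acvr2a lies on chromosome 2, 48814109 to 48903269, plus strand (ENSMUSG00000052155), where Orc4 overlaps it on the other strand. It had 4.76, 4.94 and 4.48 TPM in the knockout livers, against 8.26, 8.60 and 6.46 TPM in the control livers. The spread within each group was small, with the highest library 1.10 times the lowest in the knockout and 1.33 times in the control group. The mean was 16.0 ± 0.71 CPM in knockout and 22.1 ± 2.96 CPM in control livers (SD, n = 3 each), a knockout mean at 72.2% of the control mean. Its log2 fold change was -0.47 (standard error 0.15; adjusted p = 0.381 in edgeR). Over the fits that leave out 1 library it ran from -0.53 to -0.35. A two-sided exact permutation test on log2 CPM gave p = 0.1 for Acvr2a, Inhbb and Fstl3, which is the lowest value possible with 3 against 3. Cnot6l, a deadenylase subunit gene, and the receptor gene Tnfrsf19 lay nearest to Acvr2a in profile, at 0.0413 and 0.0414, with an SD of Acvr2a of 0.282.

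The other receptors overlapped between the groups. Acvr1b, the type I receptor of activins (chromosome 15, 101174067 to 101213684, plus strand, ENSMUSG00000000532), had 9.94, 6.57 and 6.97 TPM in the knockout livers, against 9.35, 9.35 and 7.51 TPM in the control livers. Knockout replicate 1 was the highest library and knockout replicate 2 the lowest. The log2 fold change was 0.09 with a 95% interval of -0.36 to 0.54 (adjusted p = 0.887 in edgeR), and it stood at -0.121 with library totals, -0.155 in log2(TPM + 1) and -0.126 without knockout replicate 1. Mnd1 and Dtnb lay nearest in profile, at 0.0501 and 0.0585.

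Acvr2b, the other type II receptor gene (chromosome 9, 119402118 to 119434995, plus strand, ENSMUSG00000061393, with Gm47320 antisense to it), had the lowest level, with 16 to 38 counts in a library. It had 1.29, 0.805 and 0.959 TPM in the knockout livers, against 0.491, 1.29 and 0.835 TPM in the control livers. Its log2 fold change was 0.33 with a 95% interval of -0.60 to 1.27 (adjusted p = 0.780 in edgeR), and leaving out 1 library moved it from 0.06 without knockout replicate 1 to 0.50 without control replicate 2. Prickle3 and Slc16a9 lay nearest in profile, at 0.098 and 0.113. The ratio of Acvr2a to Acvr1b in TPM was 0.479, 0.751 and 0.643 in the knockout livers, against 0.884, 0.920 and 0.860 in the control livers, without overlap.

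Markers of other cell types differed in the same libraries, and some of these differences depended on the scaling. On library totals, the summed CPM of stellate cell and myofibroblast markers (18 of 18 in the table) ranged from 1389 to 1566 in the knockout and from 1582 to 3396 in the control livers. On the TMM-adjusted totals used for the members, a scaling added after seeing the data, it ranged from 1497 to 1699.6 in the knockout and from 1622 to 2699.7 in the control livers, with overlap. The sum of proliferation markers (10 of 10) was lower in the knockout without overlap on both, at 36.6 to 57.5 in the knockout and 71.1 to 167.1 in the control livers on the adjusted totals. Cholangiocyte markers (11 of 11) ranged from 261.7 to 608.5 in the knockout and from 570.8 to 1369.6 in the control livers on the adjusted totals, and overlapped on both. Of the 10 cholangiocyte markers tested, 10 were below 0 in log2 fold change, with a median of -1.57, and 7 were lower at an unadjusted p under 0.05, against 7.0% of all genes.

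Hepatocyte markers (13 of 14) ranged from 150364 to 171267 in the knockout and from 86879 to 147175 in the control livers on the adjusted totals, without overlap. Kupffer cell markers (12 of 12) ranged from 1308.7 to 1713.7 in the knockout and from 909.1 to 1272.7 in the control livers, and sinusoidal endothelial markers (13 of 13) from 769.6 to 806.5 in the knockout and from 606.4 to 719.7 in the control livers, on the same scale. T and natural killer cell markers (12 of 12) ranged from 20.7 to 37.3 in the knockout and from 16.1 to 18.3 in the control livers on that scale. These 4 sums overlapped on library totals. Pan-endothelial markers (13 of 13) overlapped on both, as did monocyte and lipid-associated macrophage, neutrophil, B and plasma cell, and mesothelial markers. The hepatocyte sum includes Alb, which alone took 9.60 to 10.9% of the knockout and 6.91 to 9.61% of the control counts. Of the 13 hepatocyte markers tested, 11 were above and 2 below 0 in log2 fold change. At an unadjusted p under 0.05 in edgeR, 1 was higher and 1 lower, against 10.8% of all genes in either direction. Control replicate 2 had the highest stellate, proliferation and cholangiocyte sums and the lowest hepatocyte sum, and it was also the highest library for Inhbb and Fstl3, while for Fst the highest was control replicate 1. Of the listed markers in the table, 0 were at 0 in every library, and the part of any cell type in the results was not tested.

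The rest of the ligand and receptor machinery was read in lists of genes by role. Of 7 other ligands and subunits 3 passed the filter, and Inha, which encodes the inhibin alpha subunit, did not. Gdf11, a ligand of the same type II receptors, and the stress-induced Gdf15 had log2 fold changes of 0.25 and 0.13, and Gdf3 had -0.03. The median of 0.13 was thus the value of Gdf15, which is also in the ATF4 list below, and it does not describe the ligands of the activin receptors as a set. This median was -0.052 with library totals, -0.053 in log2(TPM + 1) and -0.085 without knockout replicate 1. Relative to the median of all genes in the same setting, the median of this list was 0.122 in the TMM fit, 0.157 with library totals and 0.145 in log2(TPM + 1). Of 10 other receptors and co-receptors 7 passed, 2 above and 5 below 0, with a median of -0.08, which was -0.28 without knockout replicate 1 and -0.004 without knockout replicate 2. The TGF-beta type I receptor gene Tgfbr1 stood at -0.43, the BMP type II receptor gene Bmpr2 at -0.32, the membrane glycoprotein gene Igsf1 at -1.14 and the BMP type I receptor gene Acvr1 at 0.17. Of 14 other antagonists and follistatin-related genes 4 passed, with a median of -0.46. Fstl1 at -0.88, Sparc, a matrix protein with a follistatin-like domain, at -0.70 and the BMP antagonist Chrd at -0.23 were among them. The proprotein convertases, which cleave activin precursors, had a median of 0.16 over 4 genes, with Pcsk6 at 0.45, Furin at 0.26, Pcsk7 at 0.06 and Pcsk5 at -0.01, and this median was -0.048 with library totals and -0.046 in log2(TPM + 1). Relative to the median of all genes it was 0.148 in the TMM fit, 0.161 with library totals and 0.152 in log2(TPM + 1). None of these genes had an adjusted p under 0.05 in edgeR.

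In the SMAD and ATF4 lists genes lay below 0 more often than above, where 48.8% of all genes tested lay below 0. Of 17 tested genes of the SMAD2 and SMAD3 branch 5 were above and 12 below 0, with a median of -0.10. The ubiquitin ligase gene Trim33 stood at -0.46, Ldlrad4 at -0.46, the decoy receptor gene Bambi at -0.66 and Pmepa1 at -0.64, while the signal carriers Smad2 and Smad3 stood at 0.01 and 0.03. The branch list pools such carriers with inhibitors such as Bambi, so its median is no measure of the signal. Of 14 tested genes known to be induced by SMAD2 and SMAD3, 3 were above and 11 below 0, with a median of -0.41, or -0.239 without control replicate 2. Of these, 4 had an unadjusted p under 0.05 and were lower, and 2 were higher, against 10.8% of all genes in either direction and 7.0% lower. Ccn2, a matricellular protein gene, stood at -1.64, the cell cycle inhibitor gene Cdkn1a at -1.28 and the transcription factor gene Junb at 0.51. The feedback inhibitor Smad7, a direct target in many cells, stood at -0.01 (95% interval -0.42 to 0.40). These genes also respond to TGF-beta, and 5 of them are in both lists. The 18 genes of the ATF4 stress response, a pathway reported to induce INHBE in human cells, had a median of -0.24, with 4 above and 14 below 0. Without 1 library this median ran from -0.526 (knockout replicate 2) to -0.079 (control replicate 2). The SD of this list's median log2 CPM between replicates was 0.34. The 4 genes with the smallest p were all lower. They were the mTORC1 inhibitor gene Ddit4 at -1.50, the lipoprotein receptor gene Vldlr at -1.38, Atf5 at -0.41 and Phgdh at -0.94. Atf4 itself stood at 0.03, and a link of this pathway to Inhbe was not tested. No gene of these lists passed the adjusted test in edgeR, and the median of all genes was 0.01.

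**Figure D4:**
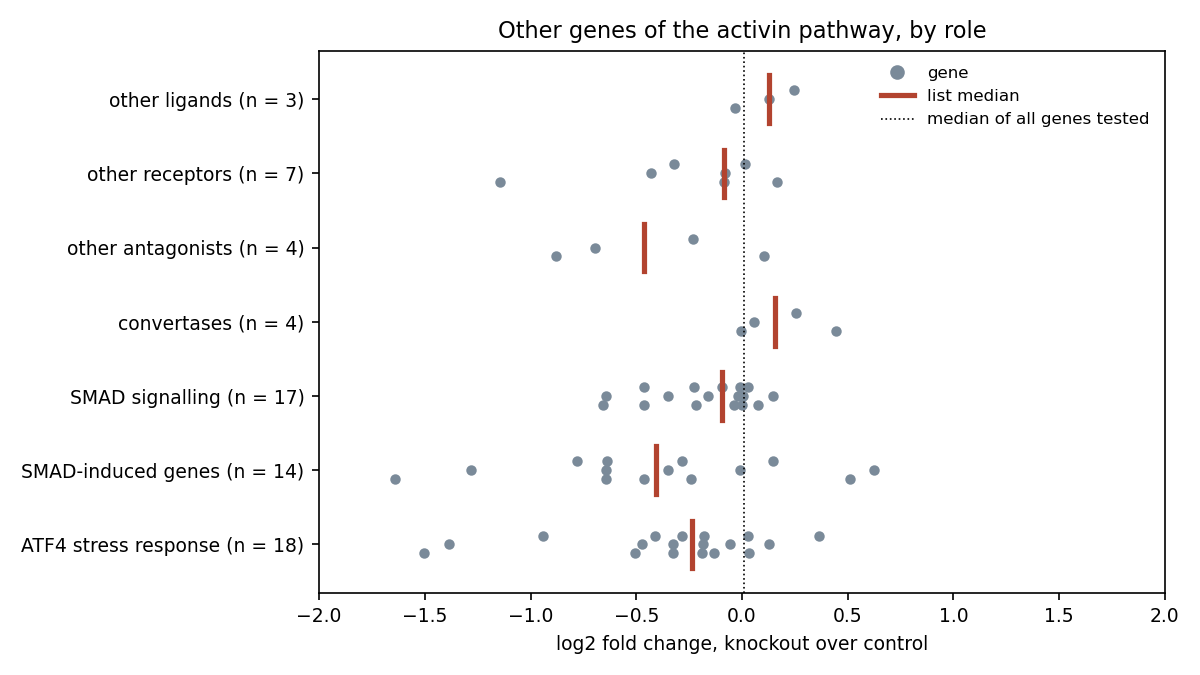
Log2 fold change, knockout over control (horizontal axis), of each tested gene in 7 lists of the activin pathway and of the ATF4 stress response, with the list median (red bar) and the median of all genes tested (dotted line). The medians of the other antagonists (-0.46) and of the genes induced by SMAD2 and SMAD3 (-0.41) lie furthest below 0.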

How the data were processed

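Estimated counts and TPM per gene were deposited by the authors for 6 libraries. DESeq2 1.38.3, RSEM 1.3.3, HISAT2 2.2.1 and fastp 0.23.2 are named, without their roles, per the submitters' processing notes, with GRCm38 as the build. The deposited expected counts were not normalized; 6.93% of the values were not whole, and they were rounded. The deposited TPM values are normalized within each library and were used for levels and ratios. Counts were compared in edgeR 4.0.16 (R 4.3.3; TMM scaling, filterByExpr, robust quasi-likelihood fit, group only, Benjamini-Hochberg adjustment over 13197 genes at 0.05); each standard error is the fold change over the root of its F statistic. Replicates are biological replicates per the labels, and libraries of a group differed beyond counting noise. Alternatives were DESeq2 1.42.0, limma 3.58.1 (voom, log2(TPM + 1) and log2(TPM + 0.1)), other scalings and filters, a replicate block and each library left out. The fits were tested on simulated data. Positions came from GENCODE M21 and sequences from RefSeq (GRCm38.p6). Named genes are the members, Sting1, up to 4 genes with the smallest p of each list, and the 2 nearest profiles of each member. Nearest means the smallest root mean square difference of log2 CPM (prior count 2, centred over 6 libraries). Smad2, Smad3, Smad7, Inha and Atf4 were added outside this rule with their values known. The members and lists were chosen with earlier results of these data known. Some genes that this rule names are not reported here.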

Additional observations from a re-analysis of the deposited data

How the results depend on the processing

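The count of members passing the adjusted test was 0 in all 15 alternatives run. The count over all genes was 0 in edgeR, 118 in DESeq2, 5 with the replicate block, and between 0 and 2 when each library was left out in turn (2 without control replicate 2 and 2 without control replicate 3). Inhbb, Fst, Fstl3 and Acvr2a stayed below 0, and Inhbe and Acvr2b above 0, in all 15. Library totals without TMM, log2(TPM + 1) and log2(TPM + 0.1) moved the median of all genes to -0.209, -0.198 and -0.230. In these settings, in that order, Inhba stood at -0.011, -0.223 and -0.325, Inhbc at -0.078, -0.087 and -0.089, and Acvr1b at -0.121, -0.155 and -0.173; relative to the median of all genes Inhba stood at 0.198, -0.025 and -0.095, and both other genes lay above 0. Leaving out 1 library gave -0.152 to 0.55 for Inhba and -0.126 to 0.214 for Acvr1b. At an unadjusted p under 0.05 there were 5 members in DESeq2 (against 11.6% of all genes), 2 with the replicate block (Acvr2a and Inhbb; 13.6%), 1 without knockout replicate 3 (Acvr2a; 6.02%) and 1 without control replicate 1 (Inhbb; 7.44%). Same-numbered libraries correlated at 0.115, -0.0068 and 0.133 in their deviations from the group means, and not every library correlated best with its own number, so that the numbers were not taken as pairs. Depth limits the precision most for the members with the lowest counts, Fstl3 (13 to 94 in a library) and Acvr2b (16 to 38).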
